A study of Mus musculus with 7 samples.

Results

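Transcripts of 10 genes known from macrophages and neutrophils were followed through 7 libraries of type 2 innate lymphoid cells (ILC2s), tissue lymphocytes that lack antigen receptors and respond to interleukin 33 through the receptor ST2. The genes were S100a8, S100a9, Lcn2, Lyz2, Plbd1, Aif1, Pld4, Csf1r, Adgre1 and C1qa. They are 10 of 55335 gene identifiers in the deposited tables, and were picked by symbol with their levels in these libraries already known. For that reason their levels are given as a description, without a test. The cells had been sorted as CD45+ Lineage-ST2+ cells from 3 pools of naive hearts and from 4 pools of Balb/C hearts that had been transplanted into C57BL/6 (B6) recipients. The grafts were taken on day 7, in acute rejection, and each pool combined 4 to 7 hearts. The labels give 7 days also for the naive hearts. The antibodies of the lineage stain, the strain of the naive hearts and the sex and age of the mice are not given in the sources used here. The spread and the p-values reported are those between pools.

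Macrophages and neutrophils are phagocytes of the innate immune system. Resident cardiac macrophages depend on signalling through the receptor CSF1R and clear dying cells, with the help of complement component C1q among other bridging molecules. Neutrophils carry large amounts of the calcium-binding proteins S100A8 and S100A9, and both cell types are recruited to a heart graft during rejection. In bulk RNA, fewer cells of a type and less RNA per cell cannot be told apart.

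The naive libraries were unlike each other, and naive replicate 2 stood apart from the other 6. Total counts lay between 29107326 and 53044907, so that the floor of 3 counts that a count of 0 allows lay between 0.0566 and 0.103 CPM (counts scaled to an equal library total). This floor allows for counting error only, and each fold given against it is a bound in that sense alone. Adgre1, for example, held 112, 0, 104 and 88 counts in allograft replicates 1 to 4. The mitochondrial share of counts was 26.5% in naive replicate 2 (26.48% to 26.5% as a 95% Wilson interval for counting error only) and between 2.04% and 3.11% elsewhere. The summed level of 12 ILC2 genes was 1154 CPM in naive replicate 2 and 11173 to 15041 CPM in the other libraries. There Il1rl1, which encodes ST2, was at 6.79 CPM, against 343 to 756 CPM elsewhere, so the markers of the labelled cell type were low in this library. A list of 10 kidney genes summed to 10590 CPM in it and to at most 295 CPM elsewhere. The levels of the 10 genes and the counts of genes called are therefore given with and without naive replicate 2. Many genes were at 0 in naive replicates 1 and 3, with 20.9% and 28.7% of the 17015 genes tested, against 2.13% to 6.92% in the allografts.

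The 10 genes followed 2 main patterns. S100a8, S100a9, Plbd1, Aif1 and Pld4 were at 0 in naive replicates 1 and 3, low in naive replicate 2 and higher in each of the 4 allografts. Csf1r, C1qa, Adgre1 and Lcn2 were highest in naive replicate 2 and at 4.06 CPM or less in each allograft. Lyz2 followed neither pattern, with the lowest and the highest level both in naive libraries. Each allograft library exceeded each naive library for 5 of the 10 genes, where 12.5% of the 17015 tested genes did. Without naive replicate 2 the count was 7 of 10 against 21.6%, without replicate 1 it was 5 against 28.5%, and without replicate 3 it was 5 against 22.5%. None of the 10 was among the 6 genes (0.0353%, and 0.0294% higher in the allografts) that passed an adjusted p of 0.05 in edgeR's quasi-likelihood test over the 7 libraries. At an unadjusted p under 0.05 none passed either, where 1091 of the 17015 tested genes were higher and 657 lower. DESeq2 gave an adjusted p for 8 of them and called none, where it called 6.66% of 15197 genes (4.17% higher). With naive replicate 2 left out, edgeR called 6 of them, all higher in the allografts: S100a8, S100a9, Plbd1, Aif1, Pld4 and C1qa. There 3.1% of 18037 genes passed, and 3% were called higher. Since the genes were chosen on this contrast, nothing is read from these counts.

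**Figure D1:**
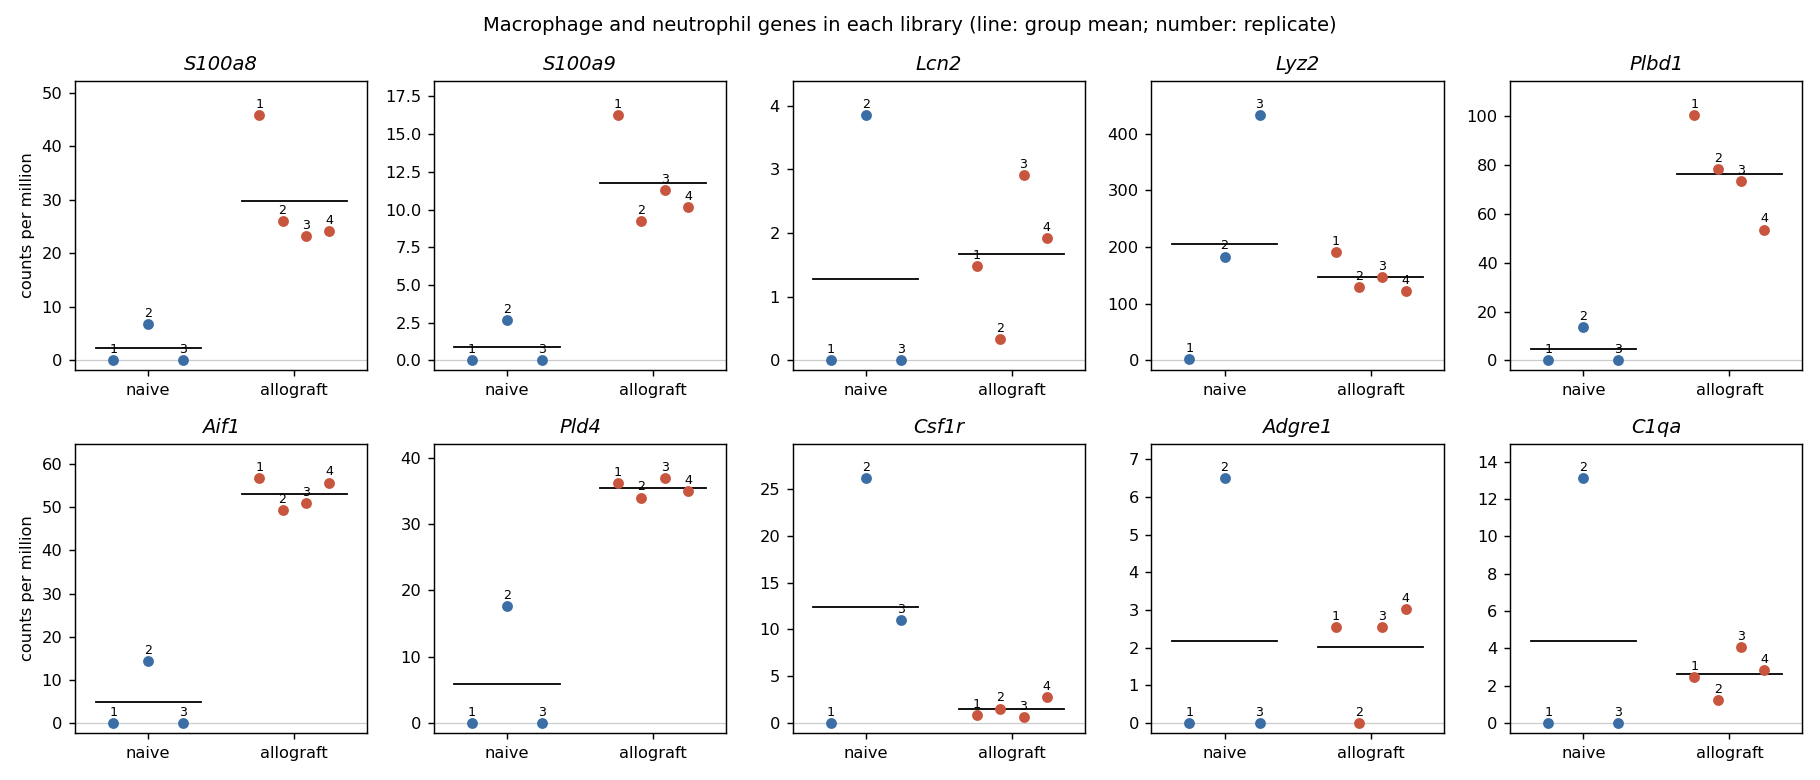
Level of each of the 10 genes in CPM (vertical axis, from 0, a different scale in each panel) in 3 naive and 4 allograft libraries. Points are libraries with their replicate number, and lines are group means. S100a8, S100a9, Plbd1, Aif1 and Pld4 have all 4 allografts above all 3 naive libraries, while Csf1r, C1qa, Adgre1 and Lcn2 have their highest point in naive replicate 2.

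S100A8 and S100A9 pair to form calprotectin, which binds calcium and zinc and acts on receptors of other cells. S100a8 (ENSMUSG00000056054, chr3:90668978-90670035, plus strand, mm10) was at 0, 6.79 and 0 CPM in naive replicates 1 to 3. It was at 45.8, 26.0, 23.2 and 24.2 CPM in allograft replicates 1 to 4. The groups did not overlap, and allograft replicate 1 lay well above the other 3 allografts. The allograft mean was 29.8 CPM ± 10.7 (SD, n = 4), 13.2 times the naive mean of 2.26 CPM ± 3.92 (SD, n = 3) and 4.39 times naive replicate 2. Against the floor of naive replicates 1 and 3, which held no count, it was at least 476-fold higher (3 counts per library, for counting error only).

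S100a9 (ENSMUSG00000056071, chr3:90692632-90695721, minus strand) starts 26743 bases from the start of S100a8, on the other strand. It was at 0, 2.66 and 0 CPM in the naive libraries and at 16.2, 9.26, 11.3 and 10.2 CPM in the allografts. Its order resembled that of S100a8, with naive replicate 2 between the empty naive libraries and the grafts, and with allograft replicate 1 on top. The allograft mean of 11.7 CPM ± 3.11 (SD, n = 4) was 13.2 times the naive mean and 4.42 times naive replicate 2. Per length, in FPKM (fragments per kilobase of transcript, scaled to depth), S100a8 stood at 1.94 times S100a9 in naive replicate 2 and at 1.55 to 2.12 times in the allografts. The ratio in naive replicate 2 thus lay within the range of the grafts.

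The sequences before the starts of these 2 neighbouring genes are shown because the genes share a pattern over the 7 libraries. They come from RefSeq (GRCm38.p6), run 5′ to 3′ on the gene's strand and end before the outermost start in GENCODE M21. Capitals mark matches, on either strand, to TTNNGNAA, a core of sites bound by C/EBP factors, or to GAGGAA, a core of sites bound by PU.1. The S100a8 sequence is chr3:90668821-90668977 and the S100a9 sequence is chr3:90695722-90695971.
S100a8: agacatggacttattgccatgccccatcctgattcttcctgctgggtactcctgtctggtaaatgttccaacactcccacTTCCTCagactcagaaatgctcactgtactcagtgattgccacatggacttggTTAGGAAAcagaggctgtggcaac
S100a9: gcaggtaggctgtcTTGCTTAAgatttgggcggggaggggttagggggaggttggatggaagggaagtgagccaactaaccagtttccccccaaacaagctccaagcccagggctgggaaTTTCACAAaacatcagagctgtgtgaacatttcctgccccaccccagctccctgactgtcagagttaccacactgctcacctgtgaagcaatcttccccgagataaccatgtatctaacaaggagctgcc
In the 250 bases before the RefSeq start, S100a8 held 1 match to TTNNGNAA and 2 to GAGGAA, of which 1 lies in the stretch not printed. S100a9 held 2 matches to TTNNGNAA and none to GAGGAA. Of 32851 RefSeq promoters of the same length, 36.8% held a match to TTNNGNAA and 23.3% a match to GAGGAA, so that such matches are common. No site of binding was measured.

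Lcn2 (ENSMUSG00000026822, chr2:32384633-32388252, minus strand) encodes lipocalin 2, an iron-scavenging protein of neutrophil granules that kidney and other epithelia also make. Lcn2 differed from the calprotectin genes. Its levels were 0, 3.85 and 0 CPM in the naive libraries and 1.48, 0.339, 2.91 and 1.92 CPM in the allografts, which rest on 65, 11, 119 and 56 counts. Naive replicate 2 lay above all 4 allografts, and the other 2 naive libraries lay below them. The allograft mean of 1.66 CPM ± 1.07 (SD, n = 4) was 1.297 times the naive mean of 1.28 CPM ± 2.22 (SD, n = 3). Against the floor of the other 2 naive libraries it was at least 26.5-fold higher. On the TMM scale of the edgeR fit over 7 libraries the log2 fold of Lcn2 had the opposite sign, -0.20, and it turned positive without naive replicate 2.

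Plbd1 and Lyz2 are used by granulocytes and by monocytes and macrophages alike. Plbd1 (ENSMUSG00000030214, chr6:136612070-136661928, minus strand), a phospholipase B-like lysosomal protein, was at 0, 13.7 and 0 CPM in the naive libraries. In the allografts it was at 100.4, 78.3, 73.5 and 53.6 CPM. No other of the 10 genes had so large a fold between the group means: the allograft mean of 76.4 CPM ± 19.2 (SD, n = 4) was 16.8 times the naive mean of 4.56 CPM ± 7.89 (SD, n = 3). It was 5.59 times naive replicate 2, and at least 1219-fold above the floor of naive replicates 1 and 3.

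Lyz2 (ENSMUSG00000069516, chr10:117277331-117282321, minus strand) encodes lysozyme M, the enzyme of phagocytes that cleaves bacterial cell walls. It was at 2.49, 183 and 432 CPM in the naive libraries and at 191, 129, 147 and 122 CPM in the allografts. The naive libraries thus reached from far below to far above the grafts, and 1 of them, naive replicate 2, lay within the graft range. The allograft mean was 147 CPM ± 30.9 (SD, n = 4) and the naive mean 206 CPM ± 216 (SD, n = 3), a ratio of 0.715. Lyz2 was the only one of the 10 with a count in all 7 libraries. Naive replicate 3 held 18842 Lyz2 counts, yet none of S100a8, S100a9, Plbd1, Aif1 or Pld4. The paralogue Lyz1 lies 5476 bases away and shares much of the sequence, so reads could be split between both genes. It was at 0, 0 and 0.482 CPM in the naive libraries and at 1.20, 0, 4.85 and 6.91 CPM in the allografts, far below Lyz2.

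Of the 5 genes of the mononuclear phagocyte line, Aif1 and Pld4 were the ones with higher levels in the grafts, and their levels were the tightest of the 10. Aif1 (ENSMUSG00000024397, chr17:35170991-35176068, minus strand) encodes IBA1, an actin-binding protein used as a macrophage and microglia stain. The levels were 0, 14.4 and 0 CPM in the naive libraries and 56.7, 49.3, 50.9 and 55.7 CPM in the allografts. The groups did not overlap. The allograft mean of 53.2 CPM ± 3.62 (SD, n = 4) was 11.1 times the naive mean of 4.79 CPM ± 8.30 (SD, n = 3), 3.70 times naive replicate 2, and at least 848-fold above the floor of the other 2.

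Pld4 (ENSMUSG00000052160, chr12:112760655-112768990, plus strand) encodes an endolysosomal exonuclease that degrades nucleic acid and is known from plasmacytoid and other dendritic cells, B cells and macrophages. It was at 0, 17.7 and 0 CPM in the naive libraries and at 36.1, 34.0, 36.9 and 34.9 CPM in the allografts. The 4 allografts differed little, with a mean of 35.5 CPM ± 1.30 (SD, n = 4) and a coefficient of variation of 3.66%. That of Aif1 was 6.82%, and those of the other 8 genes lay between 20.97% and 67.6%. The Pld4 mean was 6.02 times the naive mean, 2.01 times naive replicate 2 and at least 566-fold above the floor of naive replicates 1 and 3.

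Sequences before the starts of Plbd1, Aif1 and Pld4 are shown for the same reason and in the same way as those of the calprotectin genes. They cover chr6:136661929-136662143, chr17:35176069-35176302 and chr12:112760405-112760654.
Plbd1: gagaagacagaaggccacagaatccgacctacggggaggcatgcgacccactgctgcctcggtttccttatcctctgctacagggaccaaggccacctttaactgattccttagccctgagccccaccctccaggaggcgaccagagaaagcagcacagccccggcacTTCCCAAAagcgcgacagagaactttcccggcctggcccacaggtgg
Aif1: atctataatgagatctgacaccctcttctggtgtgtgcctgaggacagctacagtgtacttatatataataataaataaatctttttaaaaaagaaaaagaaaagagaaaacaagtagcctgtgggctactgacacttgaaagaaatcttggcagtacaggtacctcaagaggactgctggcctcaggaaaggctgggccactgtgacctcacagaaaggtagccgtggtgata
Pld4: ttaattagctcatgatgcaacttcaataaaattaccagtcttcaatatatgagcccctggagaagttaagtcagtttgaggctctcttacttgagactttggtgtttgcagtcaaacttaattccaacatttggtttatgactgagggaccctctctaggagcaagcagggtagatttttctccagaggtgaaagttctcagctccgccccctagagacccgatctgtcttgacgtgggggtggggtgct
Plbd1 held 1 match to TTNNGNAA, Aif1 held 1 match to GAGGAA in the stretch not printed, and Pld4 held neither motif in its 250 bases. Over the 7 of the 10 genes found in the RefSeq table, 5 held TTNNGNAA and 3 held GAGGAA. Neither motif occurred before all 5 of the genes shown.

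Csf1r (ENSMUSG00000024621) encodes the receptor for CSF1 and interleukin 34 on which monocytes and macrophages depend. Its levels were 0, 26.2 and 10.99 CPM in the naive libraries and 0.863, 1.54, 0.636 and 2.78 CPM in the allografts, from 38, 50, 26 and 81 counts. All 4 allografts lay below naive replicates 2 and 3 and above naive replicate 1. The naive mean of 12.4 CPM ± 13.1 (SD, n = 3) was 8.50 times the allograft mean of 1.46 CPM ± 0.965 (SD, n = 4). If naive replicate 2 is left out, the allograft mean was 0.265 times the mean of the other 2, which lay on either side of it. Exons of Csf1r overlap those of Hmgxb3 on the opposite strand. Whether counting used strand is not given in the sources used here, so reads of this overlap could belong to either gene.

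C1qa (ENSMUSG00000036887, chr4:136895917-136898803, minus strand) encodes the A chain of C1q, which macrophages make. It was at 0, 13.1 and 0 CPM in the naive libraries and at 2.45, 1.23, 4.06 and 2.85 CPM in the allografts. Naive replicate 2 was 4.95 times the allograft mean of 2.65 CPM ± 1.17 (SD, n = 4). With this library left out, the allograft mean was at least 42.3-fold above the naive floor. The other 2 chains were also highest in naive replicate 2: C1qb was at 0, 47.6 and 22.9 CPM in the naive libraries and at 2.96 to 12.02 CPM in the allografts. C1qc was at 0, 19.4 and 3.88 CPM in the naive libraries and at 1.08 to 8.31 CPM in the allografts. In FPKM, C1qb stood at 3.47 times C1qa in naive replicate 2 and at 2.33 to 4.02 times in the allografts. In naive replicate 3, C1qb and C1qc held counts while C1qa held none.

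Adgre1 (ENSMUSG00000004730, chr17:57358691-57483527, plus strand) encodes F4/80, the surface antigen most used to mark mouse macrophages, which eosinophils carry as well. It was at 0, 6.51 and 0 CPM in the naive libraries and at 2.54, 0, 2.55 and 3.02 CPM in the allografts. Allograft replicate 2 held no Adgre1 count, and 3 counts there correspond to 0.0926 CPM. The allograft mean of 2.03 CPM ± 1.37 (SD, n = 4) was 0.935 times the naive mean. Naive replicate 2 was 3.21 times the allograft mean, and without it the mean was at least 32.4-fold above the naive floor.

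On the length-scaled scale the 10 genes can be ranked among themselves in the allografts. Lyz2 was highest at 96.7 FPKM ± 19.9 (SD, n = 4), followed by S100a8 at 37.2 ± 13.2, Aif1 at 30.1 ± 1.97, Plbd1 at 25.2 ± 6.23 and S100a9 at 19.5 ± 5.07. Pld4 stood at 8.88 FPKM ± 0.328 and C1qa at 2.19 FPKM ± 0.985, while Adgre1, Lcn2 and Csf1r were at 0.542 ± 0.366, 0.533 ± 0.350 and 0.217 ± 0.145 FPKM. The ranges of neighbours overlapped for S100a8 and Aif1, Aif1 and Plbd1, Plbd1 and S100a9, Adgre1 and Lcn2, and Lcn2 and Csf1r. Within libraries, Plbd1 nevertheless stood above S100a9 in 4 of 4 allografts, whereas the order of the other 4 pairs held in 2 or 3 of 4. The proportions of the genes differed between naive replicate 2 and the grafts. Aif1 was at 2.08 times Csf1r in FPKM in naive replicate 2 and at 75.8 to 303 times in the allografts. For Aif1 over Pld4 the ratio was 1.84 in naive replicate 2 and 3.12 to 3.61 in the allografts.

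**Figure D2:**
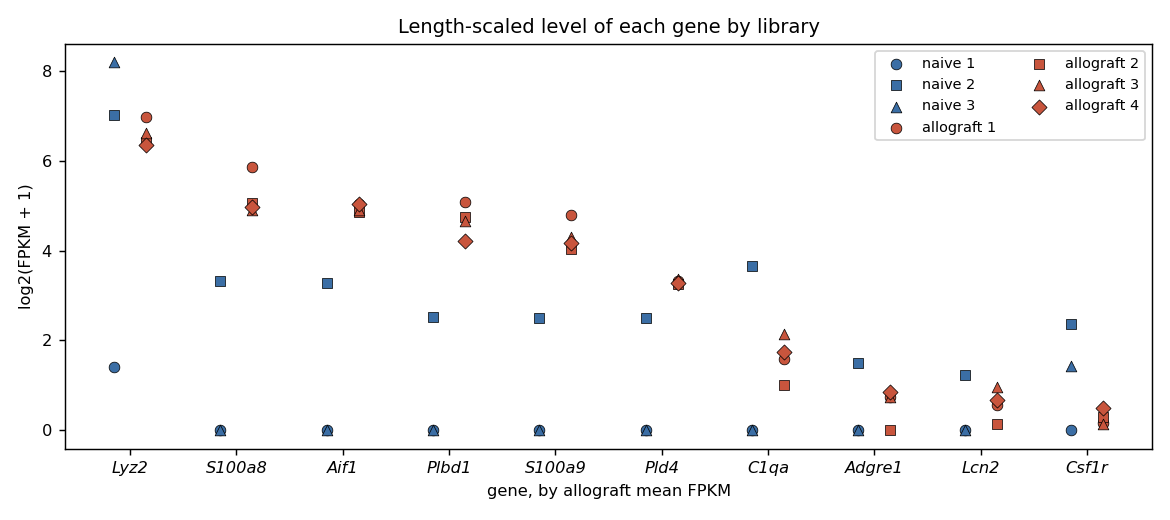
Level of each gene per length, as log2(FPKM + 1) (vertical axis), for 7 libraries, with genes in the order of their allograft mean. Blue points are naive and red points allograft libraries, and the shape gives the replicate. C1qa, Adgre1, Lcn2 and Csf1r have the square of naive replicate 2 above all 4 allografts, whereas from S100a8 to Pld4 it lies below them.

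Other macrophage genes, a list of 24 without the members, had a direction that depended on naive replicate 2. Of the 16 that could be tested, edgeR called 0 in either direction. At an unadjusted p under 0.05, 2 were higher, as 1091 of all 17015 tested genes were. Those 2, Timd4 and Mrc1, were at 0 in each naive library, so their direction was fixed by the low-count filter. The median log2 fold of allograft over naive was 0.08, against -0.01 over all tested genes. DESeq2 called 1 of the 15 it gave an adjusted p for, where it called 6.66% of all genes. This was Timd4, a receptor of resident macrophages for dying cells. Timd4 was at 0 in each naive library and at 3.48, 2.16, 4.36 and 2.78 CPM in the allografts, at least 50.1-fold above the floor of the naive group (edgeR adjusted p = 0.144, and 6.95e-09 to 1 over the alternatives). Mertk, the receptor by which resident macrophages take up dying cells, was at 15.8 CPM in naive replicate 2, at 0.136 CPM in allograft replicate 1 and at 0 in the other 5 libraries. Cd68, a lysosomal glycoprotein, was at 0, 14.9 and 0 CPM in the naive libraries and at 27.8, 17.4, 11.7 and 17.7 CPM in the allografts. Cd14, the coreceptor for endotoxin, was at 0, 23.2 and 10.1 CPM in the naive libraries and at 9.67 to 31.5 CPM in the allografts. Ccr2, the chemokine receptor of inflammatory monocytes, was the most abundant of the list, with 206, 5.74 and 514 CPM in the naive libraries and 339 to 614 CPM in the allografts. In the fit without naive replicate 2, edgeR called 4 of 19 macrophage genes tested, where 3% of all genes were called higher. They were all higher in the allografts: Cd68, Fcgr3, Ly6c2 and Timd4. All 4 were at 0 in both naive libraries of this fit, so their direction was fixed by the low-count filter. In the same fit 8 of the 19 had an unadjusted p under 0.05, as did 3651 of all 18037 genes tested. The median log2 fold of the 19 was 7.07, against 0.23 over all genes of that fit. The 7.07 is a fitted value that depends on the prior count where both naive libraries are at 0. The list's summed level was 206, 167 and 553 CPM in the naive libraries and 423 to 665 CPM in the allografts. Most of it was Ccr2 except in naive replicate 2, where Ccr2 was at 5.74 CPM and C1qb at 47.6 CPM.

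Other neutrophil genes, a list of 24, were mostly at a few CPM or less in the allografts, granule genes and surface receptors alike. Of the 12 tested, edgeR called 0, 7 were higher at an unadjusted p under 0.05 and none lower. Among all 17015 tested genes, 1091 were higher and 657 lower at that limit. Of the 12, 6 held at most 3 counts in each naive library, as 698 of all 17015 tested genes did. Such genes passed the low-count filter through the allografts alone, so their direction was fixed in advance. The median log2 fold was 3.72 with genes empty in the naive group set at their bound, against -0.01 over all tested genes. DESeq2 called 4 of the 9 it gave an adjusted p for, where it called 4.17% of all genes higher. These were Ngp, Camp, Ctsg and Acod1, all higher and all at 0 in each naive library. Ngp, a granule protein of neutrophil precursors, was at 0 in each naive library and at 9.27, 1.73, 5.95 and 8.14 CPM in the allografts. Camp, the cathelicidin gene, was at 0.832 to 1.42 CPM in the allografts, and Ctsg, the granule protease cathepsin G, at 1.86 to 4.80 CPM, both at 0 in each naive library. Of the other granule genes, Ltf was at 2.73, 0, 1.76 and 0.378 CPM and Mpo at 0, 1.42, 0 and 0.721 CPM in the allografts, with both at 0 in each naive library. Elane and Prtn3 were at 0 in each allograft. Csf3r, the receptor for the growth factor of neutrophils, was at 0 in 5 libraries and at 0.278 and 0.309 CPM in allograft replicates 2 and 4. Cxcr2, their main chemokine receptor, was found in allograft replicate 3 alone, at 2.45 CPM. Ly6g, the surface antigen that defines mouse neutrophils, was at 0.771 and 2.86 CPM in allograft replicates 2 and 3 and at 0 elsewhere. EdgeR called 3 of 15 without naive replicate 2, where 3.1% of all genes passed, namely Ngp, Ctsg and Acod1. Without naive replicate 1, where 0.568% of genes passed, it called 2, Acod1 and Il1r2.

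The most abundant genes of this list are not restricted to neutrophils. Acod1, the itaconate-producing enzyme of activated myeloid cells, was at 0 in each naive library and at 15.5, 11.1, 17.0 and 13.4 CPM in the allografts. That is at least 223-fold above the floor of the naive group (edgeR adjusted p = 0.144, and 1.61e-16 to 1 over the alternatives). Retnlg, a resistin-like secreted protein of myeloid cells, was at 0, 3.28 and 5.16 CPM in the naive libraries and at 62.0, 38.2, 37.7 and 47.3 CPM in the allografts. Its groups did not overlap, and allograft replicate 1 was again the highest, but it was not called (log2 fold 3.76 ± 1.55 SE, edgeR adjusted p = 0.463). Chil3, a chitinase-like protein of myeloid cells, was at 0, 2.22 and 247 CPM in the naive libraries and at 43.8 to 103 CPM in the allografts. Il1r2, a decoy receptor for interleukin 1, was at 948, 4.68 and 16.8 CPM in the naive libraries and at 210 to 325 CPM in the allografts. Both spanned the grafts from below and above within the naive group, as Lyz2 did.

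**Figure D3:**
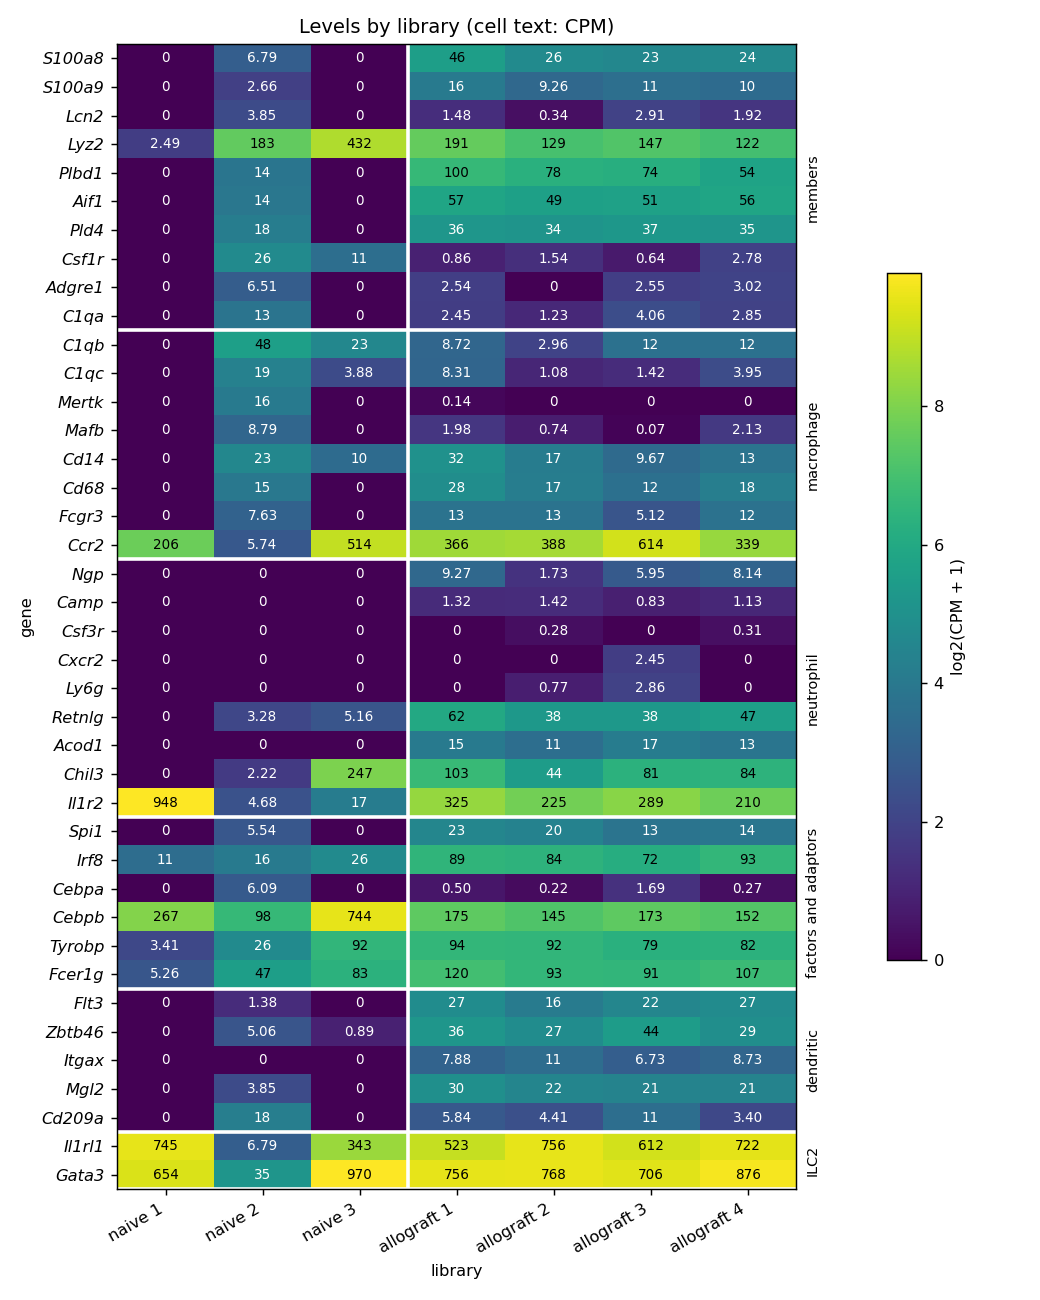
CPM of the 10 genes and of 30 others in each of the 7 libraries, with the CPM printed in each cell and the colour on a log2(CPM + 1) scale. The other genes were picked for display after their values had been seen. Naive replicates 1 and 3 are at 0 for 9 and 8 of the 10 genes. Csf3r, Cxcr2, Ly6g and Mertk are at 0 or under 3 CPM in each allograft. From the same 2 blocks, Retnlg, Acod1, Cd68, Cd14 and Fcgr3 are at 5.12 CPM or more in each allograft.

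Myeloid transcription factors and signalling adaptors, a list of 12 that were all tested, had 0 calls in edgeR, with 1 higher and 1 lower at an unadjusted p under 0.05. Among all 17015 tested genes, 1091 were higher and 657 lower at that limit. The median log2 fold of the 12 was 0.93. For 5 of the 12 each allograft exceeded each naive library, where 12.5% of all genes did. Spi1, which encodes the myeloid factor PU.1, was at 0, 5.54 and 0 CPM in the naive libraries and at 22.6, 20.2, 12.9 and 13.8 CPM in the allografts, the same order of libraries by group as for Aif1 and Pld4. When naive replicate 2 was left out, Spi1 and the oxidase subunit gene Cybb were called, both higher, where 3% of all genes were. Irf8, a factor of monocytes, dendritic cells and B cells, was at 10.6, 15.8 and 25.5 CPM in the naive libraries and at 89.4, 84.2, 72.1 and 93.3 CPM in the allografts. DESeq2 called Irf8 (adjusted p = 0.00255) and edgeR did not (adjusted p = 0.144, log2 fold 2.07 ± 0.41 SE, and 0.00255 to 1 over the alternatives). Cebpb, a C/EBP factor of many cell types, was at 267, 98.1 and 744 CPM in the naive libraries and at 145 to 175 CPM in the allografts. Tyrobp and Fcer1g, the adaptors through which many myeloid and natural killer receptors signal, were at 3.41, 26.0 and 91.6 CPM and at 5.26, 46.6 and 82.7 CPM in the naive libraries. They were at 78.6 to 93.8 CPM and at 91.0 to 120 CPM in the allografts. Ctss, the protease cathepsin S of antigen-presenting cells, was at 148, 53.1 and 68.4 CPM in the naive libraries and at 126 to 197 CPM in the allografts.

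Ligands, receptors and cofactors of the 10 gene products, a list of 8, had no call in either direction. Of the 7 tested, edgeR called 0, DESeq2 called 0 of the 5 it gave an adjusted p for, none reached an unadjusted p of 0.05, and the median log2 fold was -0.18. Without naive replicate 2 edgeR again called 0, but 3 of 7 had an unadjusted p under 0.05, as did 3651 of all 18037 genes tested. Those 3, Ager, C1ra and C1s1, were at 0 in both remaining naive libraries, so their direction was fixed by the low-count filter. The fitted median log2 fold was 3.66, against 0.23 over all genes of that fit. Csf1, a ligand of CSF1R, was at 0, 8.64 and 35.6 CPM in the naive libraries and at 7.22 to 12.99 CPM in the allografts. Il34, the other ligand, was at 22.6 CPM in naive replicate 2 and at 0 in the other 6. Slc22a17, a receptor for lipocalin 2, was at 4.11, 18.7 and 27.8 CPM in the naive libraries and at 5.91 to 12.2 CPM in the allografts. Tlr4 and Ager, receptors for S100A8 and S100A9, stayed at or below 1.08 and 5.06 CPM in each library. C1s1, which encodes a protease of the C1 complex, was at 0, 9.85 and 0 CPM in the naive libraries and at 0.859 to 3.30 CPM in the allografts.

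Most genes of a dendritic cell list were higher in each allograft than in each naive library. The list of 10 dendritic cell genes summed to 12.7, 34.6 and 31.8 CPM in the naive libraries and to 140, 114, 137 and 127 CPM in the allografts. For 7 of the 10 each allograft exceeded each naive library, where 12.5% of all genes did. Among them Flt3, the growth factor receptor on which dendritic cells depend, was at 0, 1.38 and 0 CPM in the naive libraries and at 16.3 to 27.2 CPM in the allografts. Zbtb46, a factor of conventional dendritic cells, was at 0, 5.06 and 0.895 CPM in the naive libraries and at 27.2 to 44.3 CPM in the allografts. The other 3 were Cd209a, highest in naive replicate 2 at 18.2 CPM against 3.40 to 10.9 CPM in the allografts, Xcr1 and Siglech. Xcr1 was at 12.7, 0 and 30.9 CPM in the naive libraries and at 13.5 to 25.4 CPM in the allografts, and Siglech, at 0, 4.29 and 0 CPM, had naive replicate 2 within the graft range of 2.34 to 6.56 CPM. EdgeR called 0 of the 10, with 2 higher at an unadjusted p under 0.05, where 1091 of all 17015 tested genes were higher. DESeq2 called 1 of the 8 it gave an adjusted p for, where it called 6.66% of all genes. Without naive replicate 2 edgeR called 8 higher, where 3% of all genes were. Csf1r, by comparison, stood at 2.78 CPM or less in the same grafts. The part of dendritic cell transcripts in the levels of the 10 genes was not tested.

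B cell genes, a list of 8, summed to 265, 26.1 and 249 CPM in the naive libraries and to 319 to 486 CPM in the allografts. T cell genes summed to 348, 30.4 and 1085 CPM in the naive libraries and to 1064 to 1260 CPM in the allografts, with an overlap. Genes of eosinophils, mast cells and basophils summed to 416, 14.6 and 330 CPM in the naive libraries and to 214 to 270 CPM in the allografts. Each allograft exceeded each naive library for 5 of 8, 3 of 8 and 1 of 10 genes of these lists, where 12.5% of all genes did. None of these 3 lists had a gene called by edgeR over the 7 libraries. At an unadjusted p under 0.05 they had 4, 0 and 1 higher genes, where 1091 of all 17015 tested genes were higher. DESeq2 called 3, 0 and 1 of the 7, 5 and 9 it gave an adjusted p for, where 6.66% of all genes passed. EdgeR without naive replicate 2 called 3, 0 and 0, where 3.1% of all genes passed. Cardiomyocyte genes summed to at most 39.4 CPM in each library, with Tnnt2, Myl2 and Ryr2 at 0 throughout. Endothelial and fibroblast genes were highest in naive replicate 2, at 362 CPM, against 58.7 to 106 CPM in the allografts, and erythroid genes at 2937 CPM against 468 to 595 CPM. Lung genes summed to 0.283, 1.89 and 668 CPM in the naive libraries and to 243 to 656 CPM in the allografts. The part of any of these transcripts in the results was not tested.

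**Figure D4:**
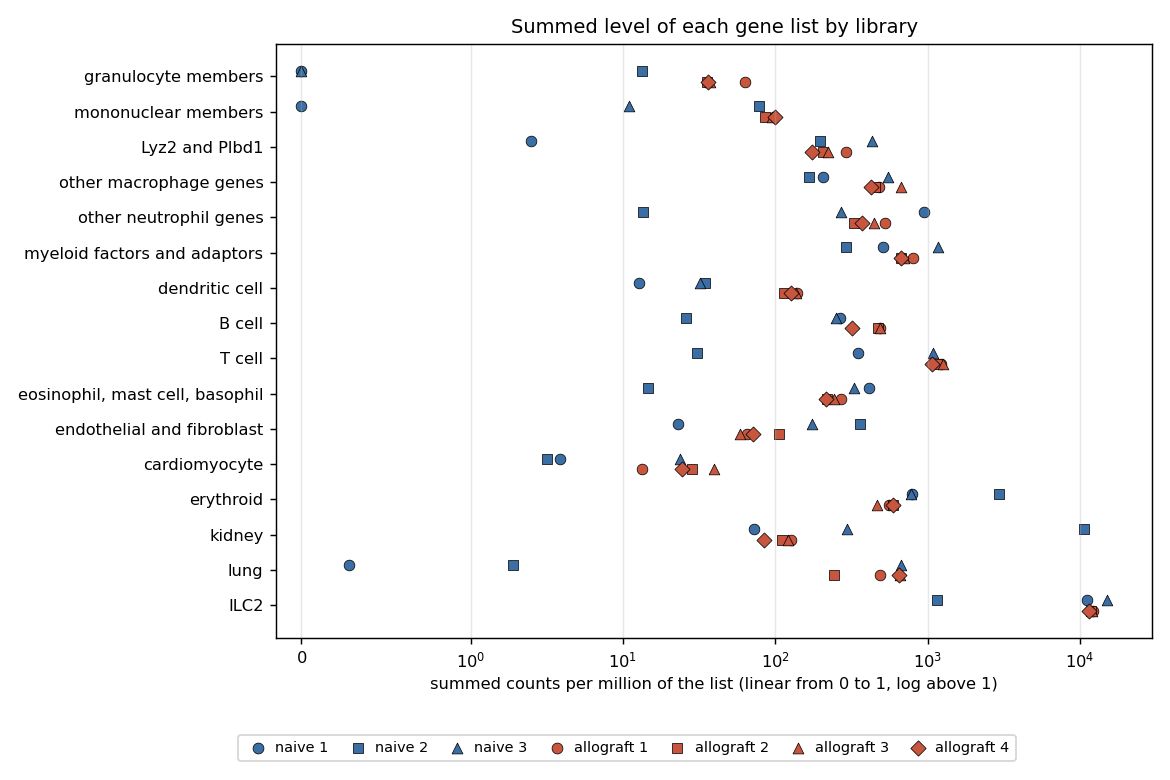
Summed CPM of each gene list (horizontal axis, linear from 0 to 1 and logarithmic above) in each library, with blue for naive and red for allograft and the shape for the replicate. The square of naive replicate 2 lies far left of the others for ILC2 genes and far right for kidney genes, while dendritic cell genes have all 4 allografts, at 114 to 140 CPM, to the right of all naive libraries.

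The zeros of naive replicates 1 and 3 were more frequent among genes of low level. Of the 17015 genes tested, 14.3% had no count in either of these libraries. Among 8511 genes with an allograft mean of at least 10 CPM, a limit set after the values were seen, the share was 0.928%, or 79 genes. Those 79 include S100a8, S100a9, Plbd1, Aif1 and Pld4, which are all of the 10 genes above the limit other than Lyz2. Of the 79, 15 also had no count in naive replicate 2, and none of the 5 is among these. From the lists, the 79 also include the macrophage genes Cd68 and Fcgr3, the factor gene Spi1, Acod1, the dendritic cell genes Flt3 and Mgl2 and the B cell gene Ms4a1.

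Patterns over the 7 libraries were compared as the root mean square (RMS) difference of log2(CPM + 1), each gene centred on its own mean. Among the 10 genes the closest pairs were Aif1 and Pld4 at 0.344, Plbd1 and Aif1 at 0.353, and Lcn2 and Adgre1 at 0.362. The farthest pair was Plbd1 and Csf1r at 3.42. Lcn2 and Adgre1 are known from different cell types. Of 9662 other genes with an average log2 CPM of at least 3, those most like the mean profile of S100a8, S100a9 and Lcn2 were Mbtd1 at 0.201, Bri3bp at 0.335, Ms4a6c at 0.360, Tbc1d22b at 0.367 and Cd74 at 0.375. For the mean profile of Aif1, Pld4, Csf1r, Adgre1 and C1qa, which was highest in naive replicate 2, they included Pyroxd1 at 0.297, Snx16 at 0.314, Miga1 at 0.350 and Gphn at 0.362. Mbtd1, for example, was at 1.43, 13.3 and 2.00 CPM in the naive libraries and at 17.7 to 25.8 CPM in the allografts. Both mean profiles average genes of the 2 main patterns, so a likeness to the mean is not a likeness to each gene. Aif1 and Csf1r, for instance, differed by 3.16, and S100a8 and Lcn2 by 1.76. These likenesses rest on 7 libraries, 1 of which stands apart.

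Among the allografts, replicate 1 was the highest for 5 of the 10 genes: S100a8, S100a9, Lyz2, Plbd1 and Aif1. Replicate 3 was the highest for Lcn2, Pld4 and C1qa, replicate 4 for Csf1r and Adgre1, and replicate 2 for none.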

How the data were processed

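RNA of 3 naive and 4 allograft pools was extracted with a small-scale kit and amplified as full-length cDNA, per the labels' protocols. The submitters' processing notes name FastQC 0.11.5, STAR 2.5.3a, StringTie 1.3.1c, DESeq2 1.16.1 and the build mm10, without roles. The authors deposited whole-number counts per gene and FPKM values for the same identifiers. Counts were scaled here to CPM of the deposited total. FPKM served only to compare genes with each other and as an alternative.

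Groups came from the sample titles. The test was edgeR 4.0.16 (R 4.3.3), quasi-likelihood, TMM, filterByExpr, Benjamini-Hochberg at 0.05, over 7 libraries without covariates, tested on simulated data. The simulation used a fixed dispersion and no library that stood apart, so it does not show how the test performs on these data. The alternatives, 14 in all, were DESeq2 1.42.0, its size factors in edgeR, no filter, no mitochondrial genes, each library left out, a replicate block, and limma 3.58.1 on log2(FPKM + 1) and log2(FPKM + 0.1). Of the identifiers, 27197 had no count, 55154 occurred in GENCODE M21, and 0 table columns were left over. Amplified reads without molecular identifiers are not independent molecules.

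The genes and lists were chosen with earlier results of these data known. Of the macrophage, neutrophil, factor and partner lists, the 4 genes with the highest mean CPM were named by rule, and of each other list the highest. Further list genes named were chosen after their values were seen. Of the genes by likeness, the closest 5 per profile were taken. Some genes that these rules select are not reported here.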

Additional observations from a re-analysis of the deposited data

Results flagged for a closer look

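Of 49 sets of 4 allograft values examined, 3 held 1 library far from the others, by Dixon's criterion, which chance meets in about 1 of 20 sets (2.45 expected). S100a8 was at 45.8 CPM in allograft replicate 1 and at 23.2 to 26.04 CPM in the other 3. Adgre1 was at 0 CPM in allograft replicate 2 and at 2.54 to 3.02 CPM in the other 3. The summed B cell list was at 319 CPM in allograft replicate 4 and at 476 to 486 CPM in the other 3.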

How the results depend on the processing

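The count of 6 genes past the threshold became 1012 of 15197 in DESeq2 (633 higher, 379 lower), 76 in limma on log2(FPKM + 1), 201 on log2(FPKM + 0.1), and 0 to 560 with 1 library left out. Leaving out naive replicate 1 gave 107 genes, replicate 2 gave 560, replicate 3 gave 7, and each allograft library gave 0. The count of macrophage genes, 0 at first, became 1 in DESeq2, 1 in limma on log2(FPKM + 0.1) and 0 to 4 with 1 library left out, the 4 without naive replicate 2. That of neutrophil genes, 0, became 4 in DESeq2, 1 and 4 in limma (0.1 added gave 4) and 0 to 3 with 1 library left out. That of factors and adaptors, 0, became 1 in DESeq2 and 0 to 2 with 1 library left out. Partner genes stayed at 0 in all 14 alternatives.

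The same replicate numbers did not pair the libraries, with correlations of deviations of 0.0169, -0.0196 and 0.0360. With the replicate block 0 genes passed, and 252 had an unadjusted p under 0.05.

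The 10 genes kept the sign of the fitted log2 fold in 123 of 140 fits. Opposite signs came from Adgre1, C1qa and Lcn2 without naive replicate 2, Lcn2 without allograft replicate 2, Lyz2 without naive replicate 3, and these 4 genes with the block and in both limma fits. DESeq2's size factors in edgeR moved the median log2 fold of all genes by -0.19, gave 4 genes past the threshold, all higher, and turned the sign of none of the 10. Aif1, Csf1r, Plbd1, Pld4, S100a8 and S100a9 kept their sign in all 14. The causes were not tested. Leaving out naive libraries, added after seeing the data, gave 5, 7 and 5 of the 10 genes above all naive libraries, without replicates 1, 2 and 3.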
